A study of Mus musculus with 7 samples.

Results

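The type I interferon gene Ifnb1 and 7 genes that are commonly induced through the interferon receptor, Irf7, Irf9, Ifi35, Psmb8, Psmb9, Ly6e and Bst2, were followed in satellite cells, the stem cells of skeletal muscle, taken from living old mice or from mice after death. The genes were selected by name with their levels on these arrays already known, so their levels and differences are given as a description, with standard errors but with no test. Each was measured by 1 probe set annotated to that gene alone. The 8 genes are 8 of 13287 named genes in the deposited values, from which probe sets that hardly vary had been left out. All 8 were among the 9944 genes tested, those with a mean log2 level no lower than 5.12 (the 25th percentile over named probe sets). Ifnb1 passed this filter through its post-mortem arrays alone.

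Cells that sense viral or displaced nucleic acids switch on Ifnb1 through the transcription factors IRF3, IRF7 and NF-kB. Secreted interferon beta binds a receptor made of IFNAR1 and IFNAR2, and the kinases JAK1 and TYK2 then phosphorylate STAT proteins, among them STAT2, which acts with IRF9 in the complex ISGF3. ISGF3 binds interferon-stimulated response elements in the promoters of its targets, and these include Irf7 and Irf9 themselves, so that the response feeds back on its own components. Other targets remodel the proteasome for antigen presentation or hold back enveloped viruses at the cell surface.

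The arrays compared 3 groups, with 2 arrays for living mice aged 24 to 26 months (old), 2 arrays for mice 2 days after death (D2PM, days post mortem) and 3 arrays for mice 4 days after death (D4PM). All mice carried the transgene Tg:Pax7-nGFP, which puts a nuclear green fluorescent protein under the control of Pax7, the transcription factor that marks satellite cells, and cells were sorted by FACS on this signal straight into lysis buffer. The array labels and the methods give the living mice an age in months, whereas the series title calls the living mice young adults and the design text gives the same figures in weeks. The study describes its post-mortem mice as young, so the age of the mice and death cannot be told apart here. Below, rose and fell give the direction of a difference between groups and name no cause. Nothing in the sources used here states that the arrays of a group were from separate mice, and p-values therefore measure the spread between arrays.

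Levels are log2 values from RMA, a procedure that removes background, brings the arrays to a common distribution and combines the probes of each set. They carry no detection call, a difference near the floor can come out too small, and levels of different genes cannot be set against each other. Over all 9944 genes tested, limma called 10.3% higher and 9.11% lower at D2PM than in old cells, 12.4% higher and 15.5% lower at D4PM than in old cells, and 0.161% higher and 0.0302% lower at D4PM than at D2PM (adjusted p under 0.05). Counts for lists of genes, which were chosen with earlier results of these data known, are to be read against these shares. No such count is given for the 8 selected genes. For these it is stated below whether the arrays of the groups overlapped. The share of all tested genes without such overlap was not counted. With so few arrays, unchanged genes can also come out without overlap. Lack of overlap therefore describes the arrays and does not set the 8 genes apart from other genes.

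The 18 satellite cell markers had a mean level between 9.83 and 10.08 on the 7 arrays, but single markers moved in both directions. Of the 18, limma called 3 higher and 2 lower at D2PM than in old cells, and 5 higher and 4 lower at D4PM (adjusted p under 0.05). At D4PM the difference from old cells was 1.05 for Hey1 and -1.35 for Myod1. The means of 18 endothelial markers were 5.95 and 6.60 on the old arrays, 7.0 and 7.01 at D2PM and 6.98 to 7.55 at D4PM, and the means of 14 myofibre markers were 7.39 and 7.70, 8.43 and 8.56, and 8.32 to 8.65. Compared with old cells, limma called 8 of these endothelial genes higher at D2PM and 14 at D4PM, and 11 of the myofibre genes at each day, with none lower (adjusted p under 0.05). Of 14 measured macrophage and monocyte markers 8 were tested, with means of 5.64 and 6.32 in old cells and 5.51 to 5.91 in post-mortem cells. Of these, 1 was called lower at each day, Cd14 (-1.01 and -1.04), and none higher. The rest of the 14, among them Csf1r and Ptprc, and all 7 measured lymphocyte markers lay below the filter. The 9 tested markers of fibro-adipogenic progenitors had means of 7.03 and 7.65 in old cells, 7.79 and 7.87 at D2PM and 7.19 to 7.62 at D4PM, with 2 called higher at D2PM, none lower, and all 9 below 0 for D4PM minus D2PM. In bulk samples a change in the number of cells of a type cannot be told apart from a change in RNA per cell. The part of the transcripts of other cell types in the differences given here was not tested.

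Ifnb1 was close to the floor in cells of living mice and showed the widest differences of the 8 genes. Its log2 level was 4.38 and 4.45 on the old arrays, 7.59 and 7.13 at D2PM, and 8.68, 9.94 and 7.97 at D4PM. No groups overlapped, every post-mortem array lay above both old arrays, and every D4PM array lay above both D2PM arrays. The difference from old cells was 2.94 (standard error 0.45) at D2PM and 4.44 (standard error 0.41) at D4PM, 7.68-fold and 21.7-fold. Between the days it was 1.5 (standard error 0.41), 2.83-fold, and 0.96 without the second D4PM array. The 3 D4PM arrays spanned 1.97 on this scale, 3.92-fold, which exceeded the mean difference between the days, and the second D4PM array was the highest.

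The promoter of Ifnb1 is known for a compact enhancer on which IRF proteins and NF-kB assemble side by side. The 80 bases at positions -160 to -81 from its transcription start (RefSeq, GRCm38.p6, chr4:88522875-88522954, minus strand) are shown because they hold letters of both kinds next to each other, with capitals for 3 matches to the IRF half-site AANNGAAA and 1 match to the kappaB consensus of NF-kB.
Ifnb1: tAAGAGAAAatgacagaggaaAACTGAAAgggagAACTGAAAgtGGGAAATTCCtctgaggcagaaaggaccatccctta
Over the window that the RefSeq table gives for each promoter, 250 bases before the start and 50 after it, read on both strands (found for 7 of the 8 genes, all but Ly6e), 23.9% of 32851 promoters hold the IRF half-site, 8.46% the kappaB consensus, 8.3% the gamma-activated site TTCNNNGAA, and 3.44% the core of the interferon-stimulated response element, GAAANNGAAA. Every match to this core also holds the IRF half-site. The Ifnb1 window held neither the response element core nor the gamma-activated site as spelled here. A match is a string of letters and not a site shown to be bound.

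Of the other interferon genes, 12 had a probe set of their own and 6 of these passed the filter. Ifnz, which encodes the type I interferon zeta or limitin, was the only one called. Its level was 6.41 and 6.01 in old cells, 7.59 and 8.0 at D2PM, and 9.40, 9.21 and 8.50 at D4PM, so that all groups were apart and ordered as for Ifnb1. Ifnz rose by 1.59 at D2PM (standard error 0.26, adjusted p = 0.00269 from limma over 9944 genes) and by 2.83 at D4PM (standard error 0.24, adjusted p = 2.58e-05). Between the days its difference was 1.23 (adjusted p = 0.101), and without the second old array or the second D2PM array the call at D2PM was lost. Ifna4, which lay below the filter and was not tested, was at 3.78 and 3.77 in old cells, 4.15 and 4.17 at D2PM, and 5.34, 6.41 and 4.11 at D4PM. As with Ifnb1 the second D4PM array was the highest and the third the lowest, and here the third D4PM array fell below both D2PM arrays. Ifna2, Ifna5, Ifna9, Ifnab and Ifnl2 had D4PM differences from -0.27 to 0.23, with adjusted p of 0.234 to 0.893. Interferon genes resemble each other in sequence, and binding of one transcript to the probes of another was not tested.

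**Figure D1:**
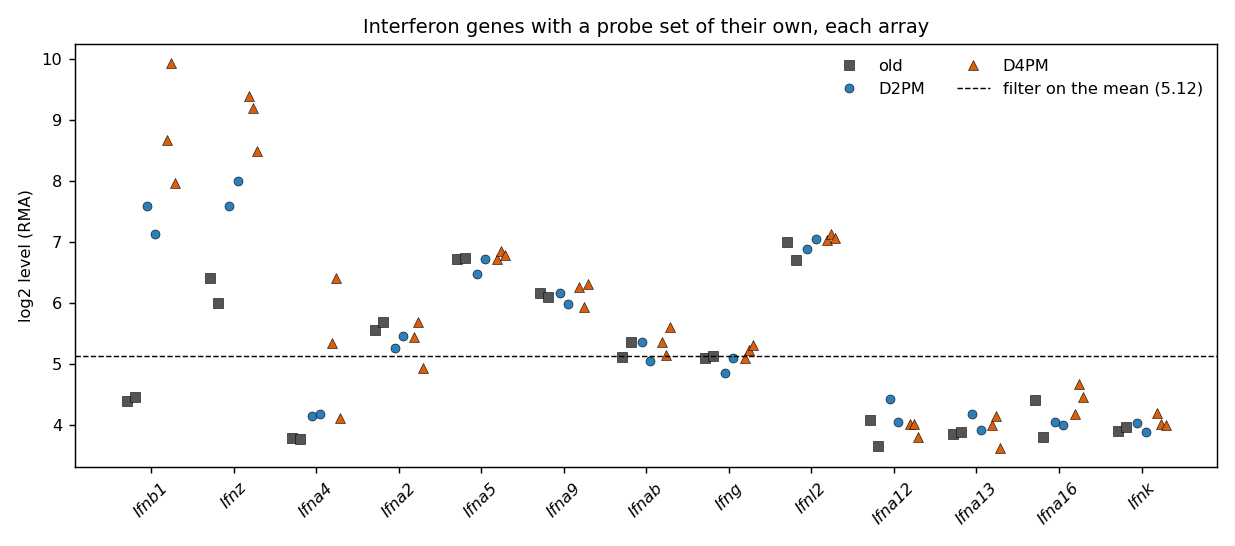
RMA log2 level (y axis) of Ifnb1 and the 12 other interferon genes with a probe set of their own (x axis), with 1 point per array for 2 old (squares), 2 D2PM (circles) and 3 D4PM arrays (triangles), and the filter value of 5.12 as a dashed line. Ifnb1, Ifnz and Ifna4 are higher on every post-mortem array than on the old arrays, Ifna4 reaches 6.41 on the second D4PM array, and levels of different genes are not comparable.

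Both IRF genes among the 8 were lower in post-mortem than in old cells. Irf9, the DNA-binding subunit of ISGF3, was at 7.88 and 7.71 in old cells, 6.39 and 6.76 at D2PM, and 6.76, 6.54 and 6.52 at D4PM. All 5 post-mortem arrays lay below both old arrays by at least 0.95, and the days overlapped. Irf9 was 2.33-fold lower at D2PM (log2 difference -1.22, standard error 0.16) and 2.28-fold lower at D4PM (-1.19, standard error 0.15), with 0.03 (standard error 0.15) between the days. Irf7, which amplifies transcription of the interferon genes, was at 6.53 and 6.67 in old cells, 5.79 and 6.38 at D2PM, and 6.30, 6.34 and 6.25 at D4PM. Both D2PM arrays and all D4PM arrays lay below the old arrays, but the gap was small and the D2PM arrays lay on both sides of the D4PM arrays. The differences of Irf7 from old cells were -0.52 (standard error 0.18) and -0.31 (standard error 0.17), and the first of these was -0.22 without the first D2PM array and -0.82 without the second. Irf7 and Irf9 held none of the 4 motifs in their promoter windows.

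Of 7 tested genes that encode receptor subunits, Janus kinases and STAT proteins, 2 were lower at D2PM than in old cells and 1 at D4PM, where 9.11% and 15.5% of all genes were lower (2 and 1 of 7 are 28.6% and 14.3%). None was higher, and the median difference was -0.44 and -0.22 (0.00 over all genes at both days). Jak1, a kinase of the interferon receptors and of many cytokine receptors, was at 10.41 and 10.60 in old cells, 9.81 and 9.71 at D2PM, and 9.87, 9.54 and 9.82 at D4PM, with all post-mortem arrays below the old ones. It fell by 0.74 (adjusted p = 0.00774) and 0.76 (adjusted p = 0.00254 from limma), both lost without the second old array and the first also without either D2PM array. Stat2, the partner of IRF9 in ISGF3, fell by 0.52 at D2PM (adjusted p = 0.0417, lost without any one of the old or D2PM arrays) and had a difference of -0.11 at D4PM (adjusted p = 0.615). Ifnar2 had differences of -0.44 and -0.32 (adjusted p = 0.0558 and 0.097). Tyk2 lay below the filter, and Ifnar1 is not analysed here because no probe set named it alone. Of 8 tested IRF genes and IRF-binding partners other than Irf7 and Irf9, Irf8 fell by 1.07 at D2PM and 1.19 at D4PM (adjusted p = 0.0017 and 0.000301) and Irf2bpl rose by 0.66 at D4PM (adjusted p = 0.00473, lost without the second old array). Irf3, which is activated by phosphorylation, had differences of 0.06 at both days (adjusted p = 0.777 and 0.744), and Irf1 had differences of -0.52 and -0.13 (adjusted p = 0.0861 and 0.621).

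Ifi35, whose product is a leucine zipper protein of the interferon response, moved like Irf9. It was at 7.22 and 7.36 in old cells, 6.43 and 6.67 at D2PM, and 6.64, 6.55 and 6.53 at D4PM, with all post-mortem arrays below the old ones and the days overlapping. It was 1.67-fold lower at D2PM (log2 difference -0.74, standard error 0.14) and 1.65-fold lower at D4PM (-0.72, standard error 0.13). Its promoter window held an IRF half-site and a gamma-activated site, overlapping each other just after the start.

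The catalytic subunits of the immunoproteasome had higher transcript levels in post-mortem than in old cells. They replace the constitutive catalytic subunits when interferon acts on a cell and change the peptides that the proteasome makes for antigen presentation. Psmb9 was at 7.54 and 7.38 in old cells, 8.27 and 8.24 at D2PM, and 8.71, 8.52 and 8.34 at D4PM. Psmb8 was at 6.54 and 6.41 in old cells, 6.63 and 6.61 at D2PM, and 7.33, 7.20 and 7.11 at D4PM. No groups overlapped for either gene, but the pattern differed, as most of the Psmb9 difference was present at D2PM and most of the Psmb8 difference appeared between the days. Psmb9 was 1.74-fold higher at D2PM (log2 difference 0.80, standard error 0.15) and 2.09-fold higher at D4PM (1.06, standard error 0.14), with 0.26 (standard error 0.14) between the days, or 0.17 without the first D4PM array. Psmb8 was 1.11-fold higher at D2PM (0.15, standard error 0.14), about the size of its standard error and 0.08 without the second old array, and 1.67-fold higher at D4PM (0.74, standard error 0.13), with 0.59 (standard error 0.13) between the days. The third subunit gene, Psmb10, which lies on another chromosome and was not among the selected genes, was at 6.89 and 6.87 in old cells, 7.47 on both D2PM arrays, and 7.74, 7.47 and 7.56 at D4PM. Every post-mortem array of Psmb10 was above the old arrays, and it rose by 0.59 (adjusted p = 0.0137, lost without any one of the old or D2PM arrays) and 0.71 (adjusted p = 0.00208 from limma). Of the constitutive counterparts, Psmb5 had differences of 0.18 and -0.09 (adjusted p = 0.435 and 0.654) and Psmb7 of 0.42 and 0.20 (adjusted p = 0.0681 and 0.289), and Psmb6 is not analysed here.

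Tap1, which encodes a subunit of the peptide transporter that carries proteasome products into the endoplasmic reticulum, lies between Psmb9 and Psmb8 on chromosome 17 and moved the other way. It was at 7.05 and 7.31 in old cells, 5.75 and 6.0 at D2PM, and 6.03, 5.93 and 6.07 at D4PM, with all post-mortem arrays below the old ones. Tap1 fell by 1.31 at D2PM (standard error 0.15, adjusted p = 0.000364) and 1.18 at D4PM (standard error 0.14, adjusted p = 0.000194 from limma). Psmb9 and Tap1 are transcribed away from each other from starts 226 bases apart. The 225 bases between the starts (RefSeq, GRCm38.p6, chr17:34187331-34187555, plus strand, reading from Psmb9 towards Tap1) are shown because both genes begin at their ends and had differences of opposite sign. The stretch is 61.3% G and C, and no capitals are used because it held 0 matches to the 4 motifs.
Psmb9 and Tap1: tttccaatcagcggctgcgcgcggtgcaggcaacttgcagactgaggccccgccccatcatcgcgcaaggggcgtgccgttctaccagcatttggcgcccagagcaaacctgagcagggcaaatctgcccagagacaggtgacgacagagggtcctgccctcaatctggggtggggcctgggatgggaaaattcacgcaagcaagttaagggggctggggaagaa
Psmb8 held 1 gamma-activated site in its window, marked in capitals in the 80 bases at positions -140 to -61 from its start (RefSeq, GRCm38.p6, chr17:34198055-34198134, plus strand) and shown for comparison with the neighbouring pair.
Psmb8: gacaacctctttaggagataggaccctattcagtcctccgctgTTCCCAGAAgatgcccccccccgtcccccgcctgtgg

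Of 15 tested genes of antigen processing other than Psmb8 and Psmb9, 1 was higher (Psmb10, 6.67%) and 3 lower (20%) at D2PM than in old cells, where 10.3% and 9.11% of all genes were. At D4PM 1 was higher (Psmb10) and 2 lower, where 12.4% and 15.5% of all genes were. The median difference of the list was -0.18 and -0.06. B2m, the light chain of MHC class I, fell by 0.65 and 0.44 (adjusted p = 0.00935 and 0.0236), the first lost without the second old array or either D2PM array and the second without either old array or without the second D4PM array or the third. The class I gene H2-Q4, whose probes may bind transcripts of related class I genes, fell by 0.55 at D2PM (adjusted p = 0.0216, lost without any one of the old or D2PM arrays). Tap2, the partner of Tap1 in the transporter, had differences of -0.18 and 0.00 (adjusted p = 0.456 and 0.994), and Erap1, which trims peptides in the endoplasmic reticulum, had differences of -0.30 and -0.33 (adjusted p = 0.148 and 0.0655).

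**Figure D2:**
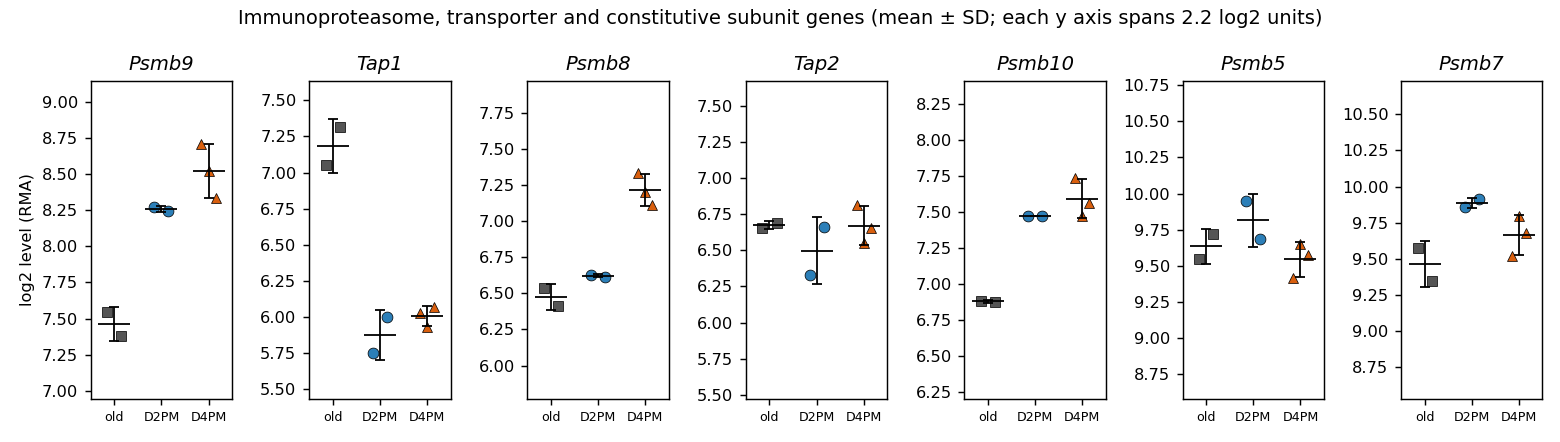
RMA log2 level (y axis, each spanning 2.2 log2 units) of immunoproteasome, transporter and constitutive subunit genes on 2 old, 2 D2PM and 3 D4PM arrays (x axis), with 1 point per array and horizontal lines and bars for the mean ± SD. Psmb9, Psmb8 and Psmb10 lie higher on every post-mortem array than on the old arrays, Tap1 lies lower, and the groups of Tap2 and Psmb5 overlap.

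Both genes for membrane proteins were higher in post-mortem than in old cells. Ly6e, a GPI-anchored protein of the Ly6 family that restrains the entry of some viruses, was at 9.42 and 9.18 in old cells, 9.90 and 9.74 at D2PM, and 10.30, 10.11 and 10.14 at D4PM. No groups overlapped and they were ordered by day. Ly6e was 1.43-fold higher at D2PM (log2 difference 0.52, standard error 0.15), 1.84-fold higher at D4PM (0.88, standard error 0.13) and 1.29-fold higher at D4PM than at D2PM (0.37, standard error 0.13). Bst2, or tetherin, which holds budding viruses at the cell surface, was at 7.12 and 6.89 in old cells, 7.45 and 7.46 at D2PM, and 8.0, 7.38 and 7.34 at D4PM. Every post-mortem array was above the old arrays, but the days overlapped and the first D4PM array stood above the other two. Bst2 was 1.37-fold higher at D2PM (0.45, standard error 0.20) and 1.49-fold higher at D4PM (0.57, standard error 0.19, or 0.36 without the first D4PM array), with 0.12 (standard error 0.19) between the days.

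Ly6e and Bst2 are also transcribed in cells other than satellite cells, Bst2 most strongly in plasmacytoid dendritic cells. Of 11 other markers of that cell type 5 were measured and 4 passed the filter, with means of 6.81 and 7.02 in old cells, 7.09 and 7.21 at D2PM, and 7.21 to 7.28 at D4PM. Of these 4, Tcf4, Ly6d and Pacsin1 had differences from old cells of -0.01 to 0.20 and were not called. The marker that rose was Cox6a2 (by 0.75 and 0.95, adjusted p = 0.0222 and 0.00274, both lost without the second old array and the first also without either D2PM array), a subunit of cytochrome c oxidase that striated muscle also transcribes. The group means of the endothelial markers were ordered as those of Ly6e and Bst2. Between the 2 old arrays, where the endothelial mean differed by 0.65, Ly6e differed by 0.24 and Bst2 by 0.23, both higher on the first, which also had the higher endothelial mean. Neither trait was particular to Ly6e and Bst2. Ifnb1, Psmb8 and Psmb9 had group means in the same order. Psmb8, Psmb9 and Irf9 were also higher on the first old array, and Ifnb1, Irf7 and Ifi35 on the second. The part of other cell types in the differences of Ly6e and Bst2 was not tested.

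Among the 7 genes with promoter windows, the promoter of Bst2 was the only one that held the response element core. It is shown at positions -160 to -81 from the start (RefSeq, GRCm38.p6, chr8:71537553-71537632, minus strand), with capitals for 2 overlapping matches to GAAANNGAAA.
Bst2: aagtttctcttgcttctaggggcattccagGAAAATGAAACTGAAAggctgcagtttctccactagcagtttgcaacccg
The same window held 3 IRF half-sites, of which 2 lie within the cores, and 1 gamma-activated site and 1 kappaB consensus that overlap each other, with the former also overlapping the start of the cores. The Psmb9 window held none of the 4 motifs, as spelled here.

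**Figure D3:**
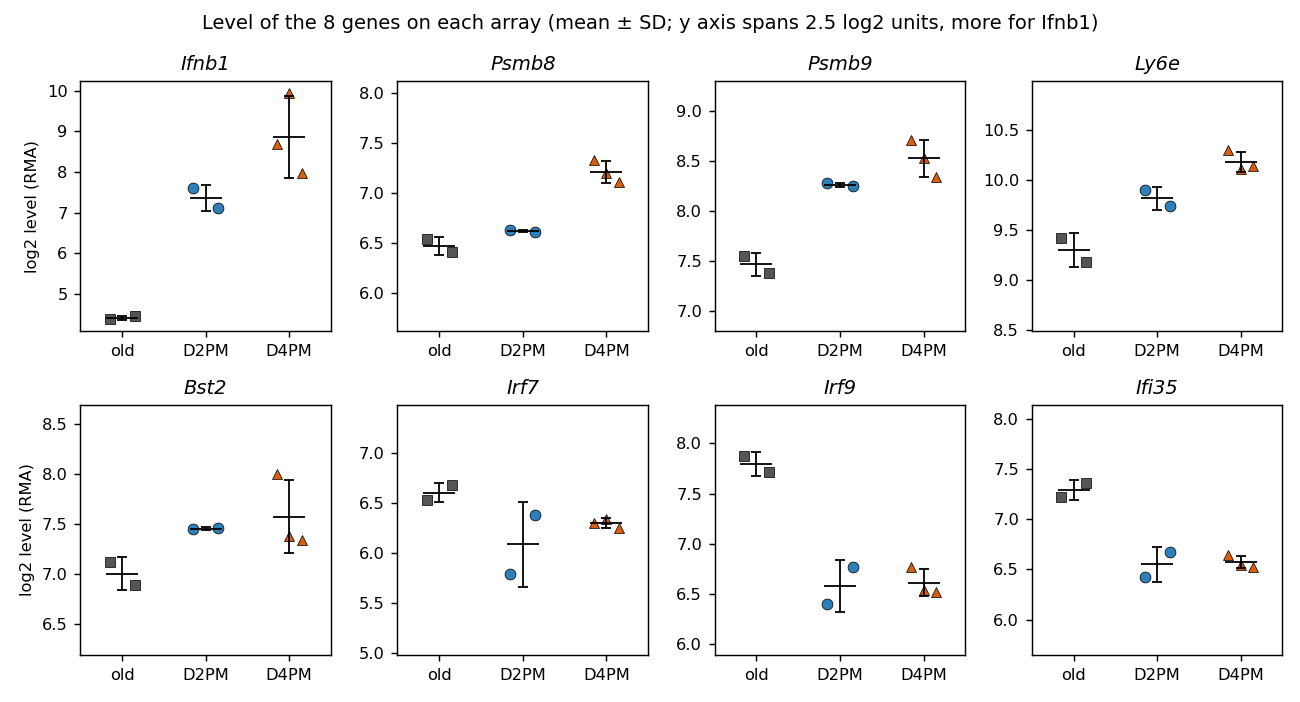
RMA log2 level (y axis, spanning 2.5 log2 units and more for Ifnb1) of the 8 genes on 2 old, 2 D2PM and 3 D4PM arrays (x axis), with 1 point per array and horizontal lines and bars for the mean ± SD. Ifnb1, Psmb8, Psmb9, Ly6e and Bst2 are higher on every post-mortem array than on the old arrays, Irf7, Irf9 and Ifi35 are lower, and D2PM and D4PM overlap for Bst2, Irf7, Irf9 and Ifi35.

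The 8 genes thus parted into Ifnb1, Psmb8, Psmb9, Ly6e and Bst2, which were higher in post-mortem than in old cells, and Irf7, Irf9 and Ifi35, which were lower. In these differences the age of the mice and death cannot be told apart. None of the 8 had overlapping old and post-mortem arrays, but they were selected with their levels known. How many of all tested genes also had no overlap was not counted. The differences from old cells were small against their standard errors for Psmb8 at D2PM (0.15, standard error 0.14) and for Irf7 at D4PM (-0.31, standard error 0.17). D2PM and D4PM were compared with the same 2 old arrays, so a deviation of those arrays enters both differences.

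**Figure D4:**
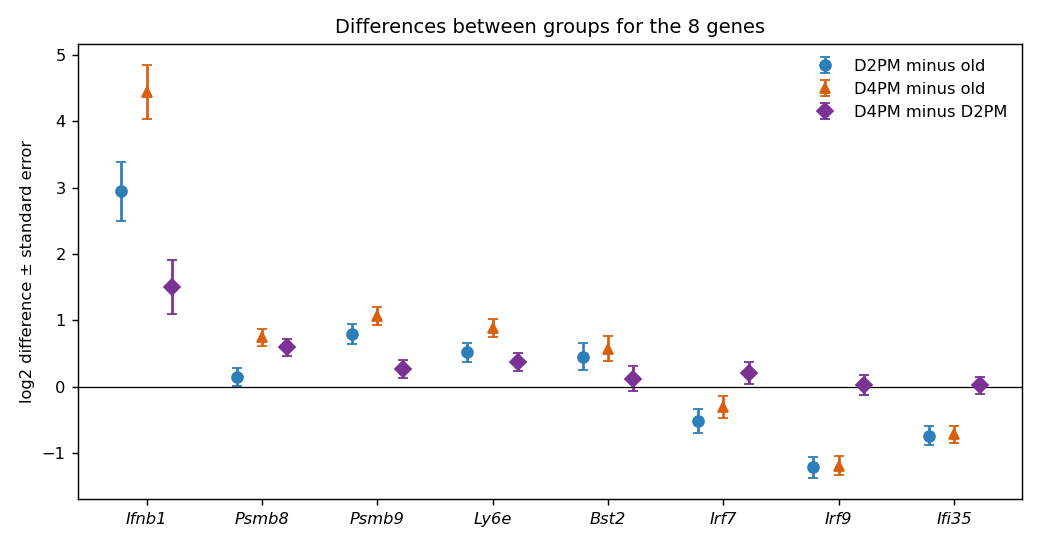
Log2 difference (y axis) of the 8 genes (x axis) for D2PM minus old (circles), D4PM minus old (triangles) and D4PM minus D2PM (diamonds), with bars of 1 standard error from limma. Ifnb1 has the largest differences, up to 4.44, 4 genes have positive differences of at most 1.06 from old cells, and Irf7, Irf9 and Ifi35 have negative differences from old cells and differences of 0.02 to 0.21 between the days.

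Genes were then ranked by their likeness to the members whose post-mortem mean differed from old by more than 1, which were Ifnb1 and Irf9. Likeness was the Euclidean distance over the 7 arrays, each taken as its log2 difference from the mean of the old arrays. Nearest to Ifnb1 were Ifit3b (distance 1.19) and Ifit3 (1.30), which encode antiviral proteins, and Tnf (1.34), an inflammatory cytokine. Their mean post-mortem differences were 3.33, 3.43 and 3.36, against 3.69 for Ifnb1. Nearest to Irf9 were the glutamine transporter gene Slc1a5 (distance 0.22), Helz2 (0.23), a helicase gene that interferon induces, and the transcription factor gene Sox11 (0.34). Their mean post-mortem differences were -1.17, -1.17 and -1.11, against -1.20 for Irf9.

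Genes for the steps that lead to transcription of Ifnb1 held some that rose and some that fell. Of 17 tested genes of nucleic acid sensing and Ifnb1 activation other than Irf7, 3 were higher (17.6%) and 2 lower (11.8%) at D2PM than in old cells, where 10.3% and 9.11% of all genes were. At D4PM 4 were higher and 4 lower (23.5% each), where 12.4% and 15.5% of all genes were, with median differences of -0.27 and -0.13. Ifih1, which encodes the RNA sensor MDA5 and is itself induced by interferon, was at 6.44 and 6.49 in old cells, 8.43 and 8.41 at D2PM, and 9.5, 9.34 and 8.76 at D4PM. The groups did not overlap, and Ifih1 rose by 1.96 (adjusted p = 0.000227) and 2.74 (adjusted p = 4.82e-06 from limma). Jun, a subunit of AP-1 that binds the Ifnb1 enhancer, rose by 1.26 and 1.40 (adjusted p = 0.000746 and 0.000112). The adaptor gene Mavs rose by 0.52 and 0.50 (adjusted p = 0.0342 and 0.0212), and the sensor gene Ddx58 rose by 0.87 at D4PM (adjusted p = 0.0143), and all of these calls were lost without either old array. The Mavs call at D2PM was also lost without either D2PM array, and that at D4PM without the first D4PM array. Rela, the NF-kB subunit of the enhancer, fell by 0.69 and 0.83 (adjusted p = 0.00798 and 0.0011), the first lost without the second old array or either D2PM array. The kinase gene Tbk1 and the adaptor gene Tank fell by 0.69 and 0.58 at D4PM (adjusted p = 0.00558 and 0.00629), both lost without the second old array. The coactivator gene Crebbp fell by 0.45 (adjusted p = 0.0302, lost without any one of 6 arrays).

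A wider set of genes induced through the interferon receptor also split, with more rising than falling at D4PM. Of 107 other genes listed, 80 had a probe set of their own and 62 were tested. The list was drawn up with earlier results of these data known, so its shares are a description and no test of the list. At D2PM 10 of the 62 (16.1%) were higher than in old cells and 8 (12.9%) lower, where 10.3% and 9.11% of all genes were, with a median difference of -0.11. At D4PM 22 (35.5%) were higher and 7 (11.3%) lower, where 12.4% and 15.5% of all genes were, with a median of 0.09 and a range from -1.46 (Iigp1) to 5.63 (Ifit1). Of the higher genes, Ifit2, Ifit3b and Mx2 (old means of 4.98, 3.88 and 4.97) passed the filter through their post-mortem arrays alone. With no filter 25 of 80 were higher and 8 lower at D4PM, where 1257 and 1552 of 13287 genes were. The highest differences were those of Ifit1, Ifit3 (4.23), Ifit3b (4.09) and Cxcl10 (3.90), which are also induced directly by IRF3 or NF-kB in many cells. Ifit1, whose product binds foreign RNA ends, was at 5.94 and 5.71 in old cells, 10.44 and 10.41 at D2PM, and 11.56, 11.48 and 11.32 at D4PM, and its groups were far apart. It rose by 4.6 at D2PM (adjusted p = 1.92e-08) and 5.63 at D4PM (adjusted p = 7.04e-10). The genes that fell at D4PM were Iigp1 and Irgm1, which encode immunity-related GTPases, the inflammatory caspase gene Casp4 (by 1.44), Helz2 (by 1.16), Ogfr, Pnpt1 and Nampt. The calls of Iigp1, Casp4 and Helz2 held without each array in turn, while those of Irgm1, Ogfr, Pnpt1 and Nampt were each lost without the second old array. That of Ogfr held without each other array, and those of Irgm1, Pnpt1 and Nampt were each lost without several others, and that of Irgm1 also after a second quantile normalisation. Without the second old array the number called fell from 18 to 10 at D2PM and from 29 to 17 at D4PM, and without the first it was 19 at D4PM.

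For D4PM minus D2PM the median of the 62 was 0.26 against -0.03 over all genes, and 49 of the 62 had a positive difference. The 18 endothelial markers had a median of 0.28 between the days, all 18 above 0, and their part in the difference of the 62 was not tested. Those called were Cxcl10, Ifit1, Ifit2, Ifit3, Ifit3b, Ms4a4d, Mx2 and Oasl2, 8 of the 62 (12.9%, where 0.161% of all genes were called higher) and all higher at D4PM. Because the list was drawn up with earlier results known, this share too is only a description. Among them Ifit2, Ifit3b and Mx2 passed the filter through their post-mortem arrays alone. Ifit3 rose by 1.60 (adjusted p = 0.00255), Ifit3b by 1.51 (adjusted p = 0.0347), Mx2, a dynamin-like antiviral GTPase, by 1.49 (adjusted p = 0.0347), and Oasl2 by 1.43 (adjusted p = 0.0196 from limma). These calls rest on few arrays. Without either D2PM array none was called (18 and 22 of the 62 had an unadjusted p under 0.05), and without either old array or without the first or second D4PM array 1 was, Ifit3. Under a trended robust prior the calls of Ifit3b and Mx2 were lost.

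Matches in the promoters of the 62 genes were counted by call. Of genes with a promoter in the RefSeq table, the response element core was found in 11 of 21 that were higher at D4PM than in old cells, in 2 of 6 that were lower and in 12 of 25 that were not called. The IRF half-site was found in 16 of 21, 5 of 6 and 19 of 25. For the gamma-activated site the counts were 3, 0 and 8, and for the kappaB consensus 4, 2 and 5. A gene counted if any of its promoters held a match. The shares over all promoters, in the same order of motifs, were 3.44%, 23.9%, 8.3% and 8.46%, counted by promoter and not by gene.

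**Figure D5:**
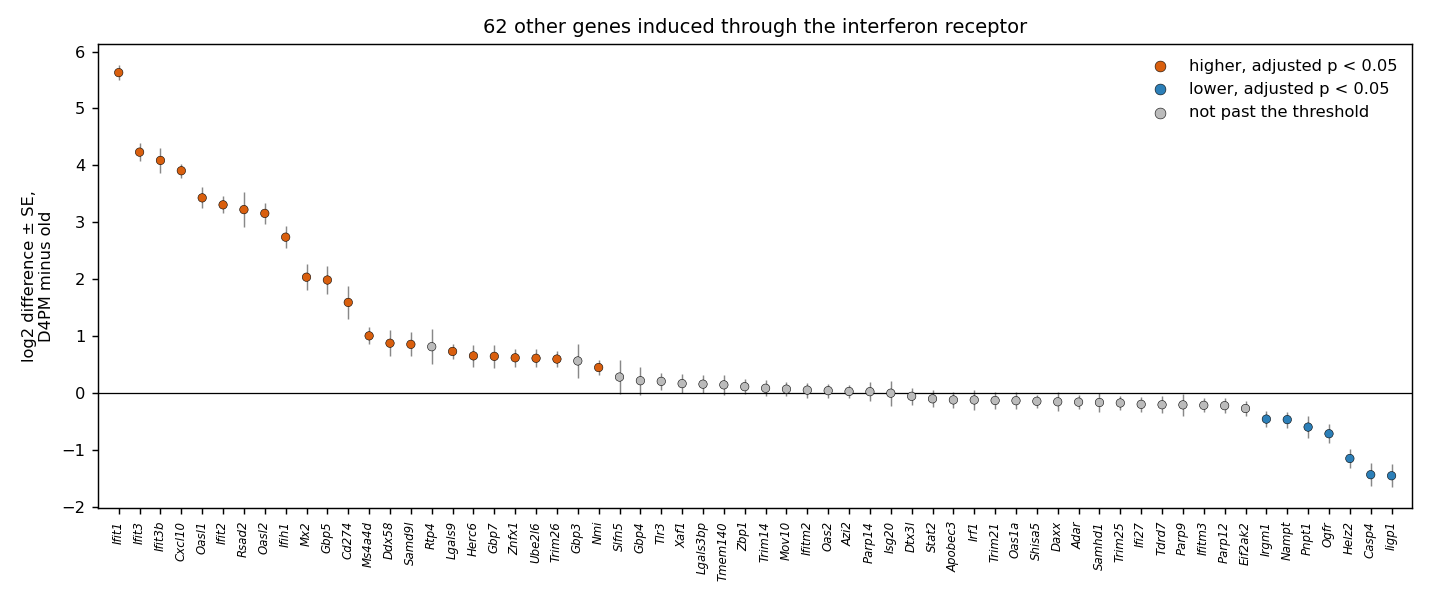
Log2 difference D4PM minus old with bars of 1 standard error (y axis) for 62 other genes induced through the interferon receptor, in order of the difference (x axis). Orange points mark the 22 genes higher at adjusted p under 0.05 from limma, blue points the 7 lower and grey points the rest, and the differences run from 5.63 for Ifit1 to -1.46 for Iigp1.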

How the data were processed

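RNA of FACS-sorted satellite cells was amplified with Ovation Pico V2 and hybridised to 7 arrays of the type GeneChip Mouse Gene 1.0 ST. The log2 values deposited by the authors came from RMA, and limma is also listed in the submitters' processing notes. The table held 18675 probe sets, with array medians of 6.11 to 6.19. The lowest SD of a probe set over the arrays was 0.0914, so probe sets that hardly vary had already been left out of the table. The number of arrays limits the precision.

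Probe sets with 1 gene in the array annotation (14480, of which 14425 matched a RefSeq table of GRCm38.p6; 774 had several genes and 3421 none listed) were named, and the brightest probe set stood for a gene. The 9944 genes with a mean of at least 5.12 were compared between the groups by limma 3.58.1, run in R 4.3.3 (means of the 3 groups over 7 arrays, empirical Bayes, 4 residual degrees of freedom), and a gene was called at a p under 0.05 after Benjamini-Hochberg adjustment. The fit was tested on simulated data.

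The 8 genes, the gene lists and the tests were chosen with earlier results of these data known. Named genes were the 8, a set of receptor, STAT, IRF and proteasome genes where measured, up to 4 genes of each other list with the largest moderated statistic for D4PM against old, genes called between the days, and the 3 genes nearest to a member with a difference over 1. Further genes of the lists (Ifna4, Ifna5, Ifna9, Mavs, Ddx58, Tank, Crebbp, H2-Q4, Tap2, Cox6a2 and the receptor targets that fell, among others) were named after their values were seen, and the IRF half-site was added after the promoters were read. No batch or scan date is given in the sources used here. The alternatives tried were median centring, a second quantile normalisation, other filters, the mean of probe sets, a trended robust prior, array weights, a replicate block, a minimum change, the post-mortem arrays alone, Student's test and leaving out each array.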

Additional observations from a re-analysis of the deposited data

How the results depend on the processing

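Of 296 values of the 8 genes under the alternatives 284 stayed within the spread between arrays. The other 12 belonged to Irf7, Irf9 and Ifi35 when a D2PM array was left out. The 284 are no measure of stability, because part of them could not move. Each of the 8 genes had 1 probe set, so the mean of probe sets repeated its values. Leaving out an array changed only comparisons with its group. Each gene was also judged by its own spread, so Ifnb1 between the days counted as unmoved at 0.96 against 1.5 (without the second D4PM array). Differences from old cells kept their sign. Between the days those of Irf7, Irf9 and Ifi35 turned to -0.09, -0.16 and -0.10 without the first D2PM array, and those of Irf9, Ifi35 and Bst2 to -0.05, -0.01 and -0.09 without the first D4PM array. Counts stayed within 1.5 times under a second quantile normalisation, median centring, no filter or a 50th percentile filter, the mean of probe sets, a trended robust prior and array weights. Deviations from the group means had correlations of -0.08 to 0.05 between arrays with the same replicate number, so the numbers were not taken as pairs. With the replicate block the genes called between D4PM and D2PM went from 19 to 54 and the receptor targets from 8 to 16. With the post-mortem arrays alone they were 2 and 1. A minimum log2 difference of 1 left 369 of 1931 genes at D2PM against old, 497 of 2770 at D4PM against old and 16 of the 29 receptor targets at D4PM. Student's test, with its spread from few arrays, called 15 genes and 0 receptor targets at D2PM (19 targets at an unadjusted p under 0.05), 14 and 2 at D4PM, and 0 and 0 between the days (692 genes and 15 targets unadjusted). Leaving out each array in turn gave 323 to 2054 genes and 10 to 21 receptor targets at D2PM against old, 911 to 2512 and 17 to 28 at D4PM against old, and 0 to 21 and 0 to 9 between the days. The lowest counts at D2PM were without the first D2PM array for genes and without the second old array for targets, and those at D4PM were without the second old array. Where 1 array was left in a group it was assumed to vary like the other groups.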

Other observations

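Genes that restrain interferon signalling were listed as well. Of 9 tested, 1 was lower at D2PM than in old cells and 3 at D4PM, or 11.1% and 33.3%, where 9.11% and 15.5% of all genes were. None was higher, and the median differences were -0.18 and -0.11. Ptpn2, a phosphatase of Janus kinases and STAT proteins, fell by 0.74 at D4PM (adjusted p = 0.00497 from limma), and Ptpn11, another phosphatase, by 0.55 (adjusted p = 0.00916). Both calls were lost without the second old array. Stat3, which can limit the response to type I interferon, fell by 0.87 at D2PM and 0.92 at D4PM (adjusted p = 0.0269 and 0.00937), with the latter lost without either old array and the former without any one of the old or D2PM arrays. Socs1, Usp18 and Isg15 are not analysed here.

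Of 6 tested genes of the Ly6 family other than Ly6e, the one called was Gpihbp1, which encodes the anchor of lipoprotein lipase on capillary endothelium. It was at 7.94 and 6.57 in old cells, 8.75 and 8.55 at D2PM, and 9.33, 9.40 and 8.72 at D4PM, with a rise of 1.40 and 1.89 (adjusted p = 0.0192 and 0.00163 from limma), the first lost without the second old array or either D2PM array and under a trended robust prior. Among the 2 old arrays it was higher on the one with the higher mean of endothelial markers, 6.60 against 5.95.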
